A study of Rattus norvegicus with 9 samples.

Results

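Reelin and neuronal migration genes, whose loss disturbs the layering of the cerebral cortex, were followed in the cortex of irradiated rats. They were chosen by name: every probe whose platform gene symbol was one of Reln, Dab1, Vldlr, Lrp8, Dcx, Pafah1b1, Nde1, Ndel1, Cdk5 and Cdk5r1. Of these 10 genes, 8 had a named probe, 1 each, and all 8 were among the 8577 named genes tested. Dcx and Cdk5r1 had no named probe and are not analysed here. The samples were cortices of 4 male and 5 female Sprague-Dawley rats, an outbred strain, 60 days old. Every animal of both sexes had been exposed in the womb to 145 cGy from a caesium source on gestation day 17. Cortex was parted from hippocampus in thawed brain slices, and 250 ng of RNA per animal was labelled for 1 Illumina bead array. Unirradiated animals were not analysed here, so none of the values measures an effect of radiation.

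Reelin is a large protein secreted into the developing cortex by Cajal-Retzius cells near the surface, and in the adult cortex mainly by inhibitory interneurons. It binds the lipoprotein receptors encoded by Vldlr and Lrp8 (also called ApoER2), which leads to phosphorylation of the adaptor protein encoded by Dab1 inside the migrating neuron. Movement of the nucleus and cell body also depends on LIS1, the product of Pafah1b1, which works with the proteins of Nde1 and Ndel1 on the microtubule motor dynein, and on the kinase CDK5. Most of this migration is over by adulthood, and the genes remain in use at synapses and in transport.

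Raw median intensity ran from 47.9 to 57.2 over the arrays. Values are log2 intensities after background correction and quantile normalisation, and a background bound was set on each array at the 99th percentile of 6605 probes missing from the authors' value table. On the first principal component, with 33.5% of the variance, 3 arrays (male 2, female 1 and female 3) lay away from the other 6. Each title also carries a running number that the labels do not explain. Male 1, male 2 and female 1 had the first number, males 3 and 4 and females 2 and 3 the second, and females 4 and 5 the third. Cortical markers were present: 9 of 9 named genes that mark glutamatergic neurons or cortical layers, and 17 of 18 that mark GABAergic interneurons, exceeded the bound on all 9 arrays. Of the Cajal-Retzius markers, 1 of 5 did so, Calb2, which interneurons also express, and Tp73 exceeded it on 0 arrays. Among all 22517 probes, 11857 to 12392 exceeded the bound on each array, and 9 of 9 named striatal markers exceeded it on all 9. These counts therefore do not set cortex apart from striatum. In bulk cortex, fewer cells of a type and less RNA per cell cannot be told apart.

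7 of the 8 genes exceeded the bound on all 9 arrays. Dab1 exceeded it on 6, in 2 of 4 males and 4 of 5 females, with raw intensities of 0.937 to 1.20 times the bound, so its values lie at the edge of detection. No gene was called between males and females: limma gave an adjusted p of 1.00 for each of the 8. Over all 12370 probes tested the share called was 0%, and 239 probes, 1.93%, had an unadjusted p under 0.05. Among the 8 genes, 2 did, Pafah1b1 and Dab1, and 7 of 8 had a lower mean in males, with a median male minus female difference of -0.12, against 0.0018 over all probes, of which 50.87% had a higher mean in males.

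**Figure D1:**
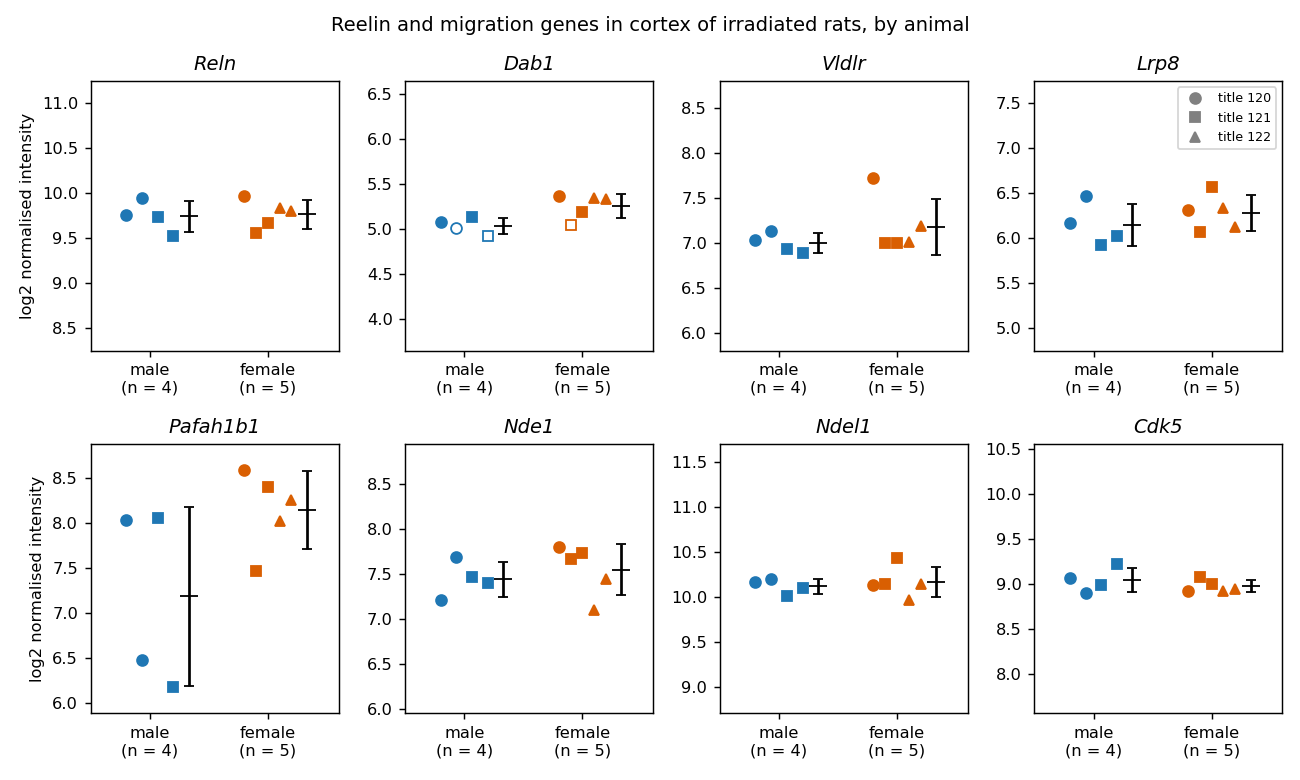
Log2 intensity (vertical axis) of the 8 genes in each animal, males left of females, with a horizontal bar at the mean of each sex. In every panel the males and the females overlap, and Pafah1b1 covers the widest span, 6.17 to 8.59.

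Reln, the ligand, stood at 9.76, 9.94, 9.73 and 9.52 in males 1 to 4, and at 9.97, 9.55, 9.66, 9.84 and 9.79 in females 1 to 5. Male 4 and female 2 were the lowest and female 1 the highest, and the sexes overlapped over nearly their whole span. The 4 males averaged 9.74 ± 0.17 (SD) and the 5 females 9.76 ± 0.16 (SD), a difference of -0.03 ± 0.11 (SE) with a 95% interval of -0.26 to 0.21. That is smaller than the spread within either sex.

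Vldlr, the first of the reelin receptors, stood at 7.04, 7.13, 6.94 and 6.89 in males and at 7.72, 7.001, 7.001, 7.01 and 7.19 in females. Female 1 stood apart above the other 8 animals, which lay within 6.89 to 7.19, and the sexes overlapped. The difference was -0.18 ± 0.14 (SE). Without female 1 it was -0.05. Female 1 also carried the highest score for choroid plexus, the tissue that makes cerebrospinal fluid: the mean deviation of its 5 tested markers was 2.02 in female 1 and between -0.72 and 0.39 in the other 8 animals. Of 12 named choroid plexus markers, 2 exceeded the bound on all arrays, and their part in the Vldlr value was not tested.

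Lrp8, the other receptor, stood at 6.17, 6.46, 5.92 and 6.02 in males and at 6.30, 6.07, 6.57, 6.34 and 6.12 in females. Male 2 and female 3 were the highest of their sexes and male 3 the lowest of all, with overlapping groups. The difference was -0.14 ± 0.13 (SE). Dab1, the adaptor, stood at 5.08, 5.01, 5.13 and 4.93 in males and at 5.36, 5.04, 5.19, 5.34 and 5.33 in females. All females but female 2 lay above every male. The 4 males averaged 5.04 ± 0.09 (SD) and the 5 females 5.25 ± 0.14 (SD), a difference of -0.22 ± 0.09 (SE) with a 95% interval of -0.42 to -0.01. Its unadjusted p was 0.040 with limma and 0.048 in an exact permutation test over all 126 assignments of the animals (two-sided), and its adjusted p with limma was 1.00. The 4 females above the bound met the filter of 4 arrays by themselves, and the 2 males above it could not. No sex difference of Dab1 is read from these p-values. The difference was -0.11 without background correction or with an offset of 50, and -0.15 in the authors' log2 values.

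Pafah1b1, which encodes LIS1 and takes its name from a lipid enzyme the protein also belongs to, stood at 8.03, 6.48, 8.05 and 6.17 in males and at 8.59, 7.47, 8.40, 8.02 and 8.26 in females. Male 2 and male 4 lay below every other animal, female 2 came next, and males 1 and 3 lay within the range of the females. The 4 males averaged 7.18 ± 1.00 (SD) and the 5 females 8.15 ± 0.43 (SD), a difference of -0.96 ± 0.37 (SE) with a 95% interval of -1.78 to -0.15. The unadjusted p was 0.024 with limma and 0.119 in the exact permutation test, and the adjusted p with limma was 1.00. Leaving out male 4 gave -0.63, the smallest difference when any 1 animal was left out, and leaving out the 3 arrays apart on the first principal component gave -0.50. Striatal markers ran the same way as Pafah1b1 and Dab1: 8 of 9 had a lower mean in males, with a median male minus female difference of -0.39, and 2, Pde1b and Pde10a, had an unadjusted limma p under 0.05 with 0 called. All 9 exceeded the bound on all arrays, and their mean scores ran from -0.43 to 0.11 in males and from -0.44 to 0.59 in females. Their part in the results for Pafah1b1 and Dab1 was not tested. Other marker lists leaned toward lower means in males too: choroid plexus, with 4 of 5 tested and a median of -0.37, and immature neurons and progenitors, with 9 of 12. The opposite held for oligodendrocytes and myelin, with 12 of 13 higher in males, and for meninges and fibroblasts, with 9 of 10.

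Nde1 and Ndel1, whose proteins bind LIS1, covered less. Nde1 stood at 7.22, 7.69, 7.47 and 7.40 in males and at 7.80, 7.67, 7.74, 7.10 and 7.45 in females, a difference of -0.11 ± 0.15 (SE). Ndel1, its close relative, stood at 10.16, 10.20, 10.01 and 10.10 in males and at 10.13, 10.15, 10.43, 9.97 and 10.14 in females, a difference of -0.05 ± 0.10 (SE). The lowest animal for both was female 4, and the highest was female 1 for Nde1 and female 3 for Ndel1. Cdk5 stood at 9.06, 8.90, 8.99 and 9.22 in males and at 8.92, 9.08, 8.998, 8.92 and 8.94 in females. Male 4 was the highest and male 2 the lowest, the females lay between them, and the difference was 0.07 ± 0.09 (SE), the only positive one of the 8.

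**Figure D2:**
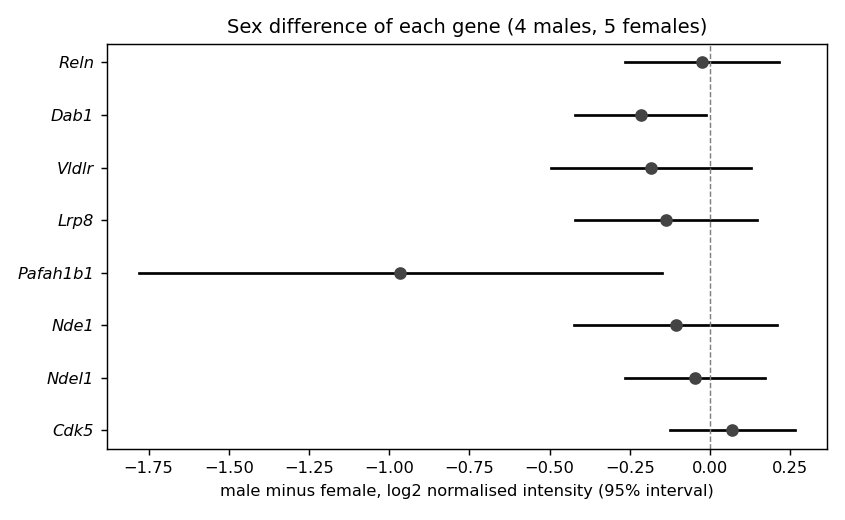
Male minus female difference in log2 intensity of the 8 genes, with the 95% interval from limma as a line and 0 marked. The intervals of Pafah1b1 and Dab1 lie below 0, while those of the other 6 genes include 0. Neither gene was called after adjustment, and Dab1 lies at the edge of detection.

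Pafah1b1 varied between animals more than most probes did. Its raw intensity ran from 81.0 to 491.4, and its log2 values covered 2.42, a 5.36-fold span. The authors' log2 values covered 2.21, from 6.41 to 8.62. Its residual SD within sex was 0.731, against a median of 0.180 among 1729 probes within 0.5 log2 of its level, which put it at the 99.7th percentile of these and at rank 37 of all 12370. The other 7 genes lay between the 15.8th percentile, for Cdk5, and the 75.3rd, for Nde1, and covered 0.32 to 0.83 on the log2 scale. The 10 tested genes nearest to Pafah1b1 on chromosome 10 in the RefSeq assembly GRCr8, 5 on each side, covered 0.28 to 0.83, at percentiles of 1.48 to 81.9, though only 4 of them exceeded the bound on all arrays. Pafah1b2 and Pafah1b3, which encode the catalytic subunits of the enzyme, covered 0.51 and 0.82. Dynlt3, a dynein light chain of the LIS1, dynein and dynactin list, covered 2.27, at the 99.8th percentile, and was lowest in male 2. A single probe measured Pafah1b1, so a difference in the probe's target sequence and a difference in level cannot be told apart.

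**Figure D3:**
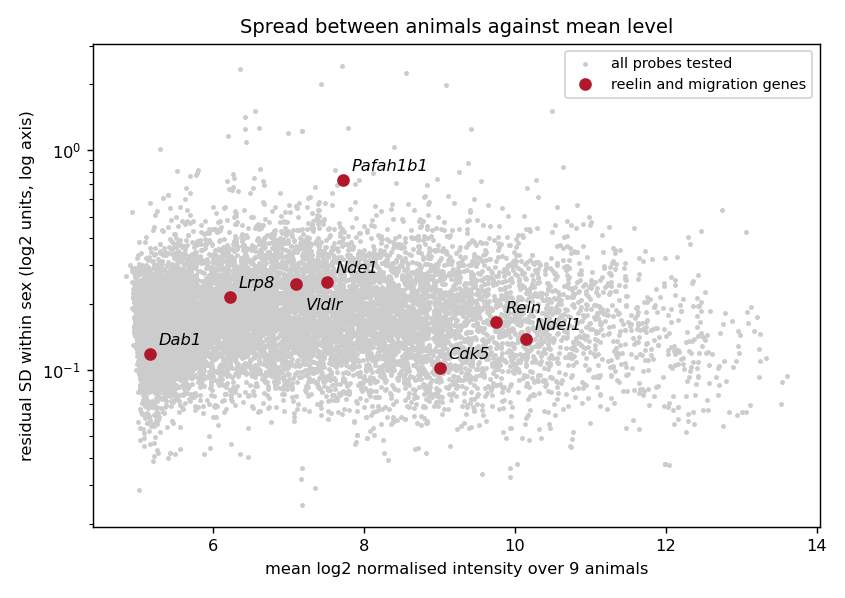
Residual SD within sex (vertical log axis) against mean log2 intensity (horizontal axis) for the tested probes, with the 8 genes marked by name. Pafah1b1, at 0.731, stands above nearly all probes of its level, and the other 7 lie within the cloud.

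**Figure D4:**
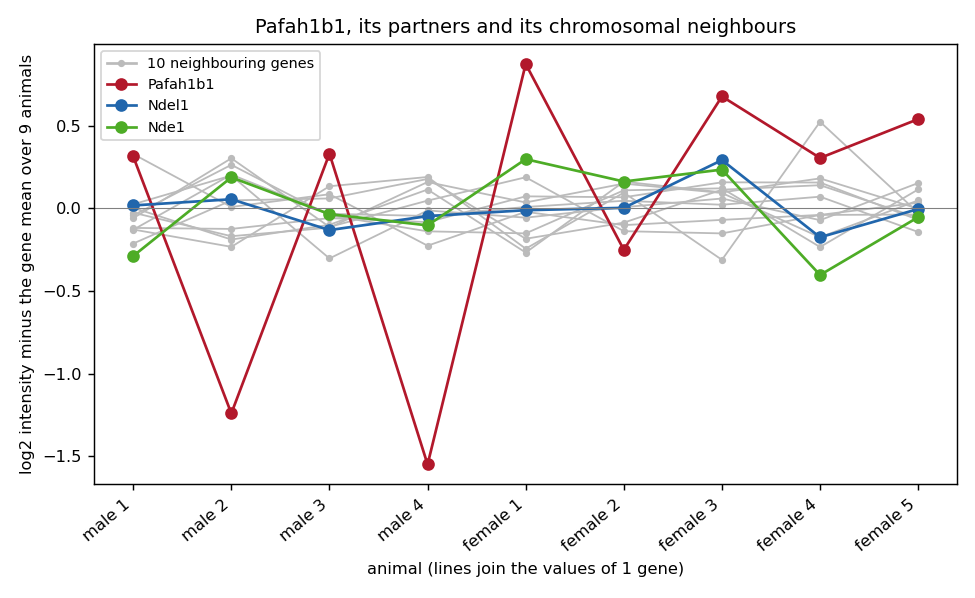
Log2 intensity minus the gene's mean over the 9 animals (vertical axis) for Pafah1b1, Nde1, Ndel1 and the 10 chromosomal neighbours of Pafah1b1, by animal with males left of females. Pafah1b1 dips in male 2 and male 4 and covers 2.42, against 0.28 to 0.83 for the neighbours.

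Between the title numbers, 0 of the 8 genes and 0% of all probes were called by limma's F test with sex as a covariate. Vldlr, with means of 7.30, 6.96 and 7.10 in the first, the second and the third number, and Nde1, with 7.57, 7.57 and 7.28, had an unadjusted p under 0.05, which 9.22% of all probes had. Their adjusted p with limma was at least 0.52. The first number's mean for Vldlr rests on female 1, at 7.72, since male 1 and male 2 stood at 7.04 and 7.13. Female 1 was also the only female of that number. The male minus female differences within it, -0.63 for Vldlr and -1.34 for Pafah1b1, therefore set 2 males against 1 animal, and within the second number they were -0.09 and -0.82. The third number held only females. The interaction of sex with the first and the second number has that same arm of 1 animal, assumed to vary like the others. Limma called 0 of the 8 genes and 0.0162% of all probes for it, and 1.83% of all probes had an unadjusted p under 0.05. Vldlr, where the lone animal was the highest of all 9, was the 1 gene of the 8 among them, and no difference between the numbers is read from it.

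Reln and Vldlr, ligand and receptor, ranked the 9 animals in a similar order. Over the 9 animals the Pearson r was 0.70 (exact permutation p = 0.012, adjusted 0.084 over 7 relations) and Spearman's rho was 0.86 (exact permutation p = 0.0045, adjusted 0.031). Adjusted over all 28 pairs of the 8 genes, the p of rho was 0.0625 (exact permutation). The settings that follow were run for r only, so how far the rank order holds in them was not tested. Without male 4 and female 1, the animals farthest from the median of Reln, r was 0.53 and did not pass the test (exact permutation p = 0.22, n = 7). Without male 4 alone it was 0.66 (adjusted p = 0.48, exact permutation) and without female 1 alone 0.69 (adjusted p = 0.41, exact permutation). Median scaling gave 0.83 (adjusted p = 0.0082, exact permutation). That scaling raised r in most pairs of the 8 genes, so the rise was not particular to this pair. Vldlr with Ndel1 went from 0.04 to 0.58 and Reln with Ndel1 from -0.12 to 0.30, while Lrp8 with Ndel1 fell from 0.63 to 0.52. With quantile normalised values, r for Reln with Vldlr was 0.73 after removal of the sex means (exact permutation p = 0.013). After removal of the title number means r was 0.45 (exact permutation p = 0.44). In the 6 arrays that lay together on the first principal component r was 0.58 (exact permutation p = 0.25). Reln with Dab1 gave r = 0.58, Dab1 with Vldlr 0.60, Reln with Lrp8 0.46, Vldlr with Lrp8 0.27 and Pafah1b1 with Ndel1 0.11, none with an adjusted p under 0.05. With median scaling Dab1 with Vldlr passed, at 0.69 (adjusted p = 0.045, exact permutation). Reln with the mean deviation of the interneuron markers gave r = 0.13 (exact permutation p = 0.73). This r was -0.62 after removal of the title number means and 0.64 with median scaling, so that neither its sign nor its size held across these settings.

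The promoters of Reln and Vldlr are shown because Vldlr followed Reln in rank over the animals. They come from RefSeq, assembly GRCr8, and run from 250 bases before the gene's start to 50 after it, at chr4:13628318-13628617 for Reln and chr1:234240436-234240735 for Vldlr, both on the plus strand. Capitals mark GGGCGG, the GC box, on either strand.
Reln: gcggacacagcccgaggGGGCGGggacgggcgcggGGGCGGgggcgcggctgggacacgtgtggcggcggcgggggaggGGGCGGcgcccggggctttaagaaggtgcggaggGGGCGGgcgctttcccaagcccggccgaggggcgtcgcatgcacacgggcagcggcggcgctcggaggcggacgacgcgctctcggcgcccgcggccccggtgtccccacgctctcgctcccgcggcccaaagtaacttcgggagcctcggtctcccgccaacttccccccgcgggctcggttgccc
Vldlr: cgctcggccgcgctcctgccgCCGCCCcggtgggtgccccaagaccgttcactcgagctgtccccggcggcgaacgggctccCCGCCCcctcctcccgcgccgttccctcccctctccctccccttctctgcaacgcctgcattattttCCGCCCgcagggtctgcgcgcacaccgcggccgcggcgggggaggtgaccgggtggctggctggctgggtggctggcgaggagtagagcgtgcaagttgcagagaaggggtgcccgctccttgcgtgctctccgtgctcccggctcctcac
Reln held 4 matches and Vldlr 3, with no overlaps, and TATAAA had 0 matches in both on either strand. Of 33469 rat promoters of this length, 33.1% held GGGCGG and 14.2% held TATAAA. GC content was 79.0% for Reln and 73.0% for Vldlr, against a median of 51.7%. 6 of the 8 genes had a promoter entry. Of the others, Cdk5 held 2 GC box matches, Ndel1 1, Nde1 0 and the Dab1 entries 1 and 2, each with 0 TATA box matches. GC boxes were thus not particular to Reln and Vldlr.

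All 28 pairs of the 8 genes were examined after their values had been seen. 1 passed an adjusted p of 0.05: Reln with Cdk5 at r = -0.87 (exact permutation p = 0.00079, adjusted 0.022 over 28 pairs), which became 0.12 when arrays were scaled to a common median in place of quantile normalisation. Male 4 had the lowest Reln and the highest Cdk5. With quantile normalised values r was -0.84 without male 4 and female 1, and -0.91 after removal of the title number means. The adjusted p was above 0.05 when any 1 of male 3, male 4, female 1, female 2 and female 5 was left out, reaching 0.245 without male 4. Dab1 and Pafah1b1 gave r = 0.82 (adjusted 0.068, exact permutation), and the same value to 2 decimals with median scaling. After removal of the sex means their r was 0.69. With each animal left out, their adjusted p ran from 0.036 to 0.31 (exact permutation).

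**Figure D5:**
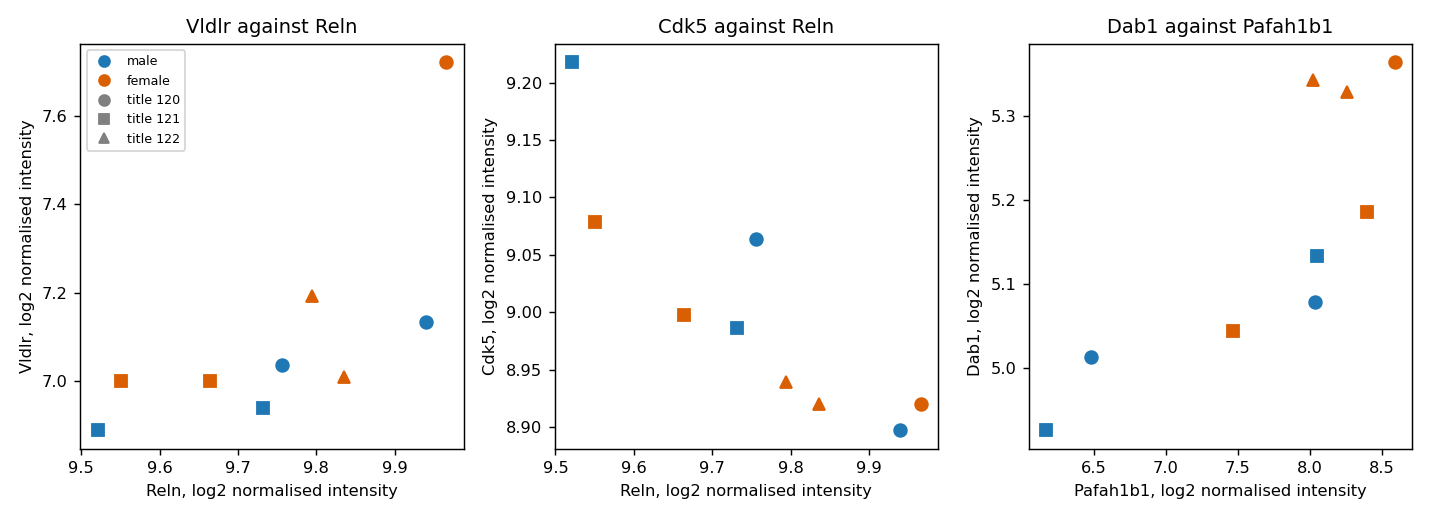
Log2 intensities of pairs of genes, 1 point per animal, coloured by sex and shaped by title number. Vldlr is higher where Reln is higher (r = 0.70, adjusted p = 0.084, exact permutation). Cdk5 is lower where Reln is higher (r = -0.87, but 0.12 with median scaling). Dab1, at the edge of detection, is higher where Pafah1b1 is higher (r = 0.82, adjusted p = 0.068, exact permutation).

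The wider pathway was read through 4 lists, of which 78 of 103 genes had a named probe and 73 were tested. Limma called 0 of the 73 between the sexes, with 31 higher in males and 42 higher in females (50.87% of all probes were higher in males), and 1 had an unadjusted p under 0.05. That was Tubg1, the microtubule-nucleating gamma-tubulin, at a difference of 0.26 ± 0.10 (SE). Of 18 tested genes of the reelin signal relay, 6 had a higher mean in males and 12 in females, with a median of -0.03. Its smallest p values belonged to Limk1, a kinase of the actin regulator cofilin, at 0.21 ± 0.12 (SE), and Akt1, a survival kinase, at -0.18 ± 0.11 (SE). Of 22 genes of LIS1, dynein and dynactin, 13 were higher in males and 9 in females. The dynactin subunit Dctn3 differed by 0.16 ± 0.10 (SE) and the dynein light chain Dynlt1 by 0.20 ± 0.15 (SE). Of 15 CDK5 partners and substrates, 8 were higher in males and 7 in females, with Cdkn1b, a cell cycle inhibitor, at 0.12 ± 0.09 (SE) and Ptk2, the focal adhesion kinase, at -0.15 ± 0.12 (SE). Of 18 tubulin, actin and doublecortin family genes, 4 were higher in males and 14 in females, and Flna, which crosslinks actin, differed by 0.20 ± 0.12 (SE).

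The genes whose pattern over the 9 animals was most like that of Reln, among 8576 others, were Gramd1c at r = 0.94, Magee1 at 0.93 and Nup107 at 0.93. In the 6 arrays that lay together on the first principal component, their r with Reln was 0.88, 0.92 and 0.91. The 3 genes were picked as the highest of 8576 over all 9 animals, which include these 6. Their r is therefore high by selection, and it was not tested. Gramd1c, at log2 values of 4.77 to 5.31, lay near the level of Dab1, at the edge of detection.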

How the data were processed

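Cortex RNA of 9 irradiated rats was measured on 1 bead array each, and the animals were grouped by the sex given in the labels. The deposited array files give 1 linear intensity for each of 22517 probes, not normalised between arrays, without detection p-values. The authors' value table holds deposited log2 values for 15912 of them. The scanner software is not given in the sources used here. Intensities were corrected with normexp (limma 3.58.1, R 4.3.3) with an added offset of 16, then turned into log2 values, then quantile normalised. Probes above the 99th percentile of the 6605 left-out probes on at least 4 arrays were tested (12370).

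The sexes were compared by limma (lmFit, eBayes; two-sided), and p-values were Benjamini-Hochberg adjusted over the whole table. Title numbers were compared by its moderated F test, sex being a covariate, and the sex difference between the first and the second number by an interaction term. Single genes and correlations also had exact permutation tests (Python 3.11.15, numpy 2.4.6, SciPy 1.17.1). Scripts were tested on simulated data. The members and lists were chosen with earlier results of these data known. Named were all members, the 2 genes of each pathway list with the smallest p between the sexes and the 3 genes most like Reln. Planned relations with Dcx and Cdk5r1 were dropped. Replicate numbers follow sample order and only name the animals. The p-values measure the spread between these samples, and animals of 1 title number could be littermates, which the labels do not say. The alternatives were other background, scaling, filter, variance and block settings, the authors' values, and leaving out each animal or the 3 arrays apart. The 95th percentile as the bound and the correlations without each animal were added after seeing the data.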

Additional observations from a re-analysis of the deposited data

Results flagged for a closer look

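Vldlr in female 1 lay far from the other females, at a log2 value of 7.72, against 7.001 to 7.19 in the other 4. The gap exceeded Dixon's 95% critical value for 5 samples. In all, 16 groups, 8 genes in each sex, were examined this way, and chance flags about 1 in 20 groups. Female 1 was also the animal with the highest choroid plexus score, 2.02, and its part in the Vldlr value was not tested.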

How the results depend on the processing

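In 21 alternatives, 0 called any of the 8 genes between the sexes. The number of probes called was 0, and 0 to 2 when each animal was left out (2 without male 1, 1 without male 4). With the title number as a replicate block, the male minus female differences were -1.03 for Pafah1b1, -0.18 for Dab1, -0.31 for Vldlr, -0.30 for Nde1, -0.21 for Lrp8, -0.12 for Ndel1, -0.04 for Reln and 0.06 for Cdk5, with no call changed. Without the 3 arrays apart, Ndel1 turned to 0.0056, against -0.05, and the cause was not tested. With each animal left out, the differences ranged from -1.26 to -0.63 for Pafah1b1, -0.27 to -0.18 for Dab1, -0.23 to -0.05 for Vldlr, -0.25 to -0.06 for Lrp8, -0.22 to -0.03 for Nde1, -0.097 to 0.021 for Ndel1, -0.093 to 0.047 for Reln and 0.01 to 0.12 for Cdk5. Dab1 had no value when probes had to exceed the bound on all arrays.

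Median scaling gave r = 0.83 for Reln with Vldlr (adjusted p = 0.0082, exact permutation), 0.69 for Dab1 with Vldlr (adjusted p = 0.045, exact permutation) and 0.12 for Reln with Cdk5. It also gave 0.64 for Reln with the interneuron markers, 0.46 for Pafah1b1 with Ndel1 and 0.44 for Vldlr with Lrp8, against 0.13, 0.11 and 0.27, none past the threshold, and the cause was not tested. With each animal left out, r ranged from 0.66 to 0.76 for Reln with Vldlr, 0.44 to 0.74 for Dab1 with Vldlr, 0.39 to 0.88 for Reln with Dab1, 0.33 to 0.76 for Reln with Lrp8, 0.17 to 0.47 for Vldlr with Lrp8, -0.26 to 0.24 for Pafah1b1 with Ndel1, -0.058 to 0.41 for Reln with the interneuron markers, -0.90 to -0.84 for Reln with Cdk5 and 0.72 to 0.86 for Dab1 with Pafah1b1. For Reln with Vldlr the adjusted p ran from 0.035 to 0.48 in these settings (exact permutation). The signal of Dab1, at the bound, and 9 arrays limit the precision.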

Other observations

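Among the 73 tested pathway genes, 5 lay above the 95th percentile of spread for their level, and were named after their values were seen. By definition about 5% of all tested probes lie above that percentile, so 5 of 73 is near the share of all probes. Dynlt3, a dynein light chain, lay at the 99.8th percentile, with log2 values of 10.39, 8.12, 10.24 and 8.52 in males and 9.64, 9.44, 10.12, 8.52 and 9.39 in females. Male 2 and male 4, the lowest animals for Pafah1b1, were low for Dynlt3 too, and female 4 was as low as male 4. Ppp1r1b, a phosphatase inhibitor of striatal neurons, lay at the 97.9th percentile, Efnb3, an ephrin ligand, at the 97.7th, Map2, a dendritic microtubule protein, at the 96.7th, and Cul5, which takes part in the turnover of phosphorylated Dab1 protein, at the 95.3rd.

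Striatal markers, of which 9 of 9 exceeded the bound on all arrays, had scores of 0.03, -0.43, 0.11 and -0.41 in males and 0.59, -0.10, 0.22, -0.44 and 0.43 in females. Male 2, male 4 and female 4 were the lowest. Male 2 and male 4 were the lowest for Pafah1b1 as well, whereas female 4, with the lowest striatal score of all, stood at 8.02 for Pafah1b1, above males 2 and 4 and female 2. For Dab1, too, male 4 and male 2 were the lowest, while female 4 stood at 5.34, below only female 1. The genes most like Pafah1b1 over the 9 animals, looked up after its values were seen, were Dusp15 at r = 0.96, Actn2 at 0.92 and Cpt1a at 0.92. Those most like Dab1 were Actn2 at 0.95, Gnal at 0.91 and Bmx at 0.91. Each was picked as among the highest of 8576 genes, so its r is high by selection and was not tested. Dusp15, at log2 values of 4.53 to 5.21, and Bmx, at 4.82 to 5.28, lay near the level of Dab1, at the edge of detection.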
